A study of Mus musculus with 6 samples.

Results

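The Notch receptors and ligands were described here through the open chromatin at and around their genes. The 9 genes were chosen by name, as the receptors and ligands of the pathway, with earlier results of these data known. They are the receptors Notch1, Notch2, Notch3 and Notch4, and the ligands Jag1, Jag2, Dll1, Dll3 and Dll4. These are 9 of 21853 protein-coding genes in the annotation. Every called peak was collected that overlapped 1000 bp either side of a protein-coding transcription start site (TSS) of these genes, the gene body, or the 20 kb upstream. Merged across libraries, these peaks formed 39 regions of 63840 in the whole series.

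Skeletal stem and progenitor cells (SSPCs), the marrow stromal cells that give rise to bone and fat cells, were profiled by ATAC-seq, in which a transposase cuts and tags accessible DNA. The age groups were compared for differences in open chromatin, and each had 3 libraries, from young or middle-aged C57BL/6 mice, all untreated and with no altered allele in the labels. Marrow cells of tibiae and femora were spun out, plated and used at passage 1, and the labels describe no sort. The labels say that cells came from at least 3 mice but do not tie a library to an animal, so the p-values measure the spread between libraries, which may in part be technical.

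Notch receptors are single-pass membrane proteins that bind Jagged and Delta-like ligands on neighbouring cells. Binding lets ADAM proteases and then gamma-secretase cut the receptor, and the freed intracellular domain joins the DNA-binding protein RBPJ to switch on targets of the Hes and Hey families. In bone marrow, Notch signalling is known for holding mesenchymal progenitors back from osteoblast differentiation. Dll3 differs from the other ligands in that it does not activate receptors on neighbouring cells. A peak at a TSS marks open chromatin there, and it is not a measure of the amount of RNA or protein.

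The sequences that carry the described peaks are printed below, each 200 bases long, from mm10 (GRCm38) and in the direction of the gene's transcription, free of annotated exons. The first 3 lie at the start sites that were open in every library. The Jag1 intron, Notch2 intron 1 and far upstream Notch1 sequences lie under the other region with the highest mean rank at each of these loci. The last 2 lie in regions called in the middle-aged libraries alone. Capitals mark a motif found by a letter search on both strands: GTGGGAA (the RBPJ core), TGTGGT (RUNX) or CCCNNGGG (EBF), where a match on the opposite strand appears as its reverse complement.
Notch1 start site, chr2:26503825-26504024, minus strand: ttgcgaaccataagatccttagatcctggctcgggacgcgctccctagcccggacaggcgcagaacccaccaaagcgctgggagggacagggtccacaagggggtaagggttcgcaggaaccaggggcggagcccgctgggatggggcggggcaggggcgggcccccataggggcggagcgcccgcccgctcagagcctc
Notch2 start site, chr3:98013327-98013526, plus strand: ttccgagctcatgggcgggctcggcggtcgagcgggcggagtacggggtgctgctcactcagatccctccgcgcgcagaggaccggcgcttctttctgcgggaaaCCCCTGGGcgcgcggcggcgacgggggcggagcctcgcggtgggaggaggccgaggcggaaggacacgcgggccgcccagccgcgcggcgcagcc
Jag1 start site, chr2:137116719-137116918, minus strand: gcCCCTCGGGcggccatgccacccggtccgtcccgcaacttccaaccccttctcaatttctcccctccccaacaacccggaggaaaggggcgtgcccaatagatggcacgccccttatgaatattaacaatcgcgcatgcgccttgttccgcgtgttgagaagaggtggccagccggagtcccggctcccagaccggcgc
Jag1 intron 2, chr2:137114292-137114491, minus strand: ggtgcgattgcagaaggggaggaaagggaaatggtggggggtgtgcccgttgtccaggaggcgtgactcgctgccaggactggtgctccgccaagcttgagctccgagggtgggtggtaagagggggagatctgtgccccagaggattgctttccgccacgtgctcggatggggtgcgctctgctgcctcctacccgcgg
Notch2 intron 1, chr3:98046465-98046664, plus strand: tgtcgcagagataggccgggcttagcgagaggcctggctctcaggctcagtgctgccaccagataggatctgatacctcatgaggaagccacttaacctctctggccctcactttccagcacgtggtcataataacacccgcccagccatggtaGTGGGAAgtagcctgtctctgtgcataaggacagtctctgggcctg
Notch1 upstream, chr2:26534731-26534930, minus strand: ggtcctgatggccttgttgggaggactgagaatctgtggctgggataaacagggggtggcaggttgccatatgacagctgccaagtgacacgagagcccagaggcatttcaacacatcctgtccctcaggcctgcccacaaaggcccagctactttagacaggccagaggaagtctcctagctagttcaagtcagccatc
Notch2 intron 2, chr3:98055937-98056136, plus strand: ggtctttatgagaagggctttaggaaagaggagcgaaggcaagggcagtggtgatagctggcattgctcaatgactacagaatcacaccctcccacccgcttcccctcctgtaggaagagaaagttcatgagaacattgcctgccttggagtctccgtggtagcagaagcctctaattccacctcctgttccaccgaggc
Notch3 upstream, chr17:32173235-32173434, minus strand: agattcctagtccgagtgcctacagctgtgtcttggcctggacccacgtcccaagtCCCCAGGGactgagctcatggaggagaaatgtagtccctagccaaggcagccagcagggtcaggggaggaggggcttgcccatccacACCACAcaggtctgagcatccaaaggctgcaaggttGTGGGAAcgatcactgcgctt

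The libraries differed in the length of their peak lists and in depth. The lists of young 1, 2 and 3 held 35953, 43941 and 27628 peaks, and those of middle-aged 1, 2 and 3 held 46364, 46745 and 48344. Relative depth, as the genome-wide background in extended reads per base, was 1.65 in young 3 and between 2.40 and 3.75 in the others. Young 3 was thus the shallowest library and had the shortest list. Young 1 was the deepest, at 3.75, and yet had a shorter list than young 2 and each middle-aged library. Peaks were compared by their percentile rank within their own list (by −log10 q, where 100 is the strongest peak) and by the authors' fold enrichment, the pileup at the summit over the local background. Over the 10569 genes with a TSS peak in all 6 libraries, the best TSS peak ranked higher in middle-aged libraries for 93.9% of genes, by a median of 4.97 points (quartiles 1.56 and 10.6). This general shift is the background for each value below, and whether list length or depth has a part in it was not tested. In bulk cultures, more cells with an open site cannot be told apart from a more open site in each cell.

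The cultures carried open start sites of both stromal and blood cell genes. Of 10 SSPC markers, 4 to 8 had a TSS peak in the young and 6 to 8 in middle-aged libraries. Kitl, Ebf3, Foxc1 and Runx2 had one in all 6 libraries, while Lepr and Prrx1 had none in any library. Of 10 hematopoietic markers, 5 to 7 had a TSS peak in the young and 6 in middle-aged libraries. Among these the pan-leukocyte gene Ptprc and the macrophage genes Adgre1 and Cd68 had one in all 6. Endothelial markers were found at 2 or 3 of 10 genes in the young and 3 to 5 in middle-aged libraries, with Cdh5 present in every library and Emcn, Tie1, Vwf, Cldn5 and Sox17 in none. Mural cell markers were found at 2 of 8 genes in each young and 2 or 3 in each middle-aged library. The summed height of TSS peaks over the genome-wide background was 53.4 to 80.5 in the young and 84.6 to 121 in middle-aged libraries for SSPC markers. For hematopoietic markers it was 43.5 to 82.7 and 89.9 to 98.5, for endothelial markers 30.1 to 37.4 and 39.7 to 55.9, and for mural markers 16.0 to 23.0 and 29.1 to 36.2. The sums of all 4 lists were thus higher in each middle-aged than in each young library. So was the sum over the 36 other Notch pathway genes described below, at 558 to 801 and 915 to 936. Over all 10569 genes with a TSS peak in all 6 libraries, the median log2 difference in this height was 0.48. The part of the marker lists in the results below was not tested.

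Of the 9 genes, Notch1, Notch2 and Jag1 had an open start site in all 6 libraries. Dll1 had a weak TSS peak in 4 libraries, 2 of each age. Notch3, Notch4, Jag2, Dll3 and Dll4 had no TSS peak in any library. Of all protein-coding genes, 48.4% were open at a start site in every library and 38.5% in none, beside 3 and 5 of the 9 genes here. No member had a TSS peak in one age group alone. The counts of 3 and 5 were the same for windows of 500 and 2000 bp, while Dll1 gained a peak in middle-aged 3 within 2000 bp, 1135 bp from its nearer start.

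**Figure D1:**
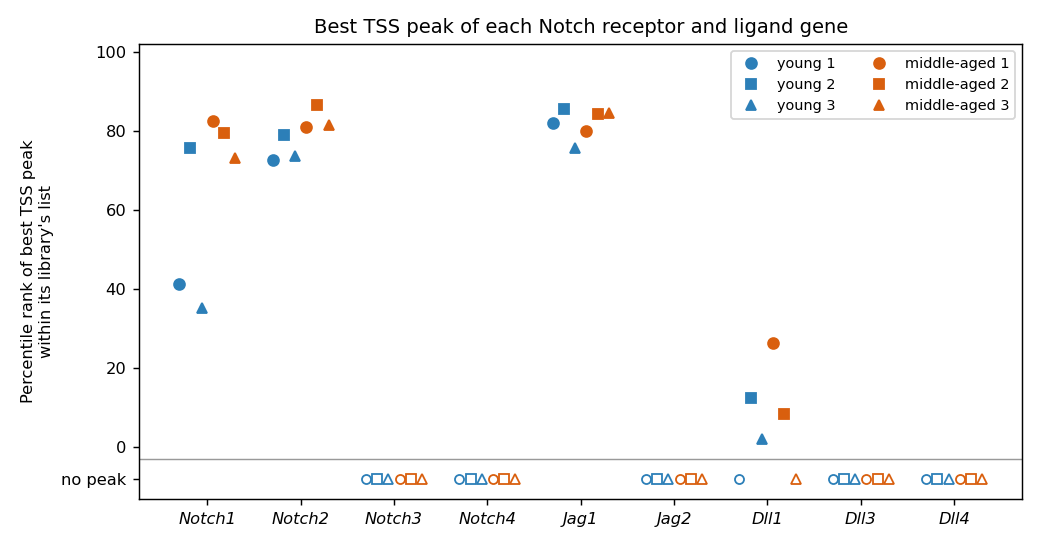
Percentile rank of the best TSS peak of each gene within its library's peak list (y axis, 100 is the strongest), with one symbol per library and open symbols for libraries without a TSS peak. Notch1 is the gene whose libraries spread most, from 35.2 in young 3 to 82.7 in middle-aged 1, whereas Jag1 stays between 75.7 and 85.5.

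Notch1, the receptor with a well-known role in lymphocyte fate and in progenitor maintenance, lies on the minus strand at chr2:26457903-26516663. Its TSS peak sat at the first exon of the full-length transcript, whose 34 exons code for 7593 bp, with the summit 22 bp upstream of that start. The other annotated start, of the short transcript with 278 coding bp, had no peak within 8830 bp in any library. The TSS peak ranked at 41.4, 75.7 and 35.2 in young 1, 2 and 3 and at 82.7, 79.5 and 73.1 in middle-aged 1, 2 and 3. Young 1 and young 3 lay well below the other 4 libraries, and young 2 lay within the middle-aged range, so the groups overlapped. The young libraries averaged 50.7 ± 21.8 (SD, n = 3) and the middle-aged ones 78.4 ± 4.85 (SD, n = 3). The ranks thus differed by 27.7 points, with p = 0.2 (exact permutation test, two-sided) and 0.418 after Benjamini-Hochberg adjustment over all 10569 genes. With 3 libraries against 3 this test cannot go below 0.1, and the smallest adjusted p of any gene was 0.324. The difference in rank was larger than that of 98.1% of genes. Ranks have an upper limit, and the median rank over these genes was 81.98 in the young and 87.93 in middle-aged libraries. Only 17.03% of genes had a lower mean rank than Notch1, so most genes had less room to rise. Whether the difference stands out among genes of similar rank was not tested. Without young 2 the difference in rank of Notch1 was 40.1, and over all omissions of 1 library it was 19.9 to 40.1.

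The fold enrichment at the Notch1 start site was 4.42, 8.14 and 5.30 in the young and 9.38, 8.88 and 6.78 in the middle-aged libraries, from summit pileups of 32, 49 and 20 and of 62, 53 and 52 reads. These pileups are raw reads that were not scaled for depth, and the fold enrichments overlapped. The ratio of mean fold enrichment was 1.40, and that of the pileup over the genome-wide background was 1.71. Over all genes with a TSS peak in all 6 libraries, the median log2 difference was 0.24 in fold enrichment and 0.48 in height over the genome-wide background.

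Notch2, which shares most of its domain structure with Notch1 and is known in marrow for B cell and osteoclast lineages, lies on the plus strand at chr3:98013527-98150361. Its TSS peak, with the summit 15 bp upstream of the start, ranked at 72.6, 79.0 and 73.6 in the young and 81.0, 86.6 and 81.4 in middle-aged libraries. Every middle-aged library ranked above every young one. The means were 75.1 ± 3.45 (SD, n = 3) and 83.0 ± 3.15 (SD, n = 3), so the ranks differed by 7.95 points, with p = 0.1, the smallest value the exact permutation test can give, and 0.324 adjusted. Of all genes with a TSS peak in 6 libraries, 30.6% had groups that did not overlap with the middle-aged higher and 0.274% with the middle-aged lower, and 65.2% had a smaller difference than Notch2. Among lists cut to the same length the difference was 2.81 points, with p = 0.5 in the exact permutation test. The fold enrichment was 7.85, 9.84 and 8.82 in the young and 10.1, 12.4 and 9.77 in middle-aged libraries, which overlapped by the young 2 value, with a ratio of means of 1.22.

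The start sites of Notch3 and Notch4 were not called in any library. Notch3, the receptor best known from smooth muscle and pericytes, lies on the minus strand at chr17:32120820-32166852. The nearest peak to the start of its full-length transcript was 6399 to 6466 bp away in middle-aged libraries, and 23334, 23335 and 117136 bp away in young 1, 2 and 3. Notch4, best known from endothelium, lies on the plus strand at chr17:34564268-34588503, and the nearest peak to its start was 2747 to 22946 bp away. A peak was called from about 8 to 13 reads at the summit upwards, depending on the library, so openness under 3.47 to 4.86 times the genome-wide background was not detectable at this depth.

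Jag1, the Jagged ligand that stromal cells of the marrow are known to carry, lies on the minus strand at chr2:137081456-137116644. It had the most reads at its start among the 9 genes in every library, and its ranks overlapped between the ages. Its best TSS peak ranked at 82.0, 85.5 and 75.7 in the young and 80.1, 84.2 and 84.6 in middle-aged libraries. The means were 81.1 ± 4.98 (SD, n = 3) and 83.0 ± 2.48 (SD, n = 3), and the difference of 1.90 points gave p = 0.7 (exact permutation test) and 0.788 adjusted. Of all genes, 28.3% had a smaller difference. The direction rested on young 3, without which the difference was −0.789, and it turned to −5.43 when the lists were cut to the same length. The region at the start, chr2:137116638-137117312 with the summit 174 bp upstream, held 93, 100 and 50 reads at the summit in the young and 80, 92 and 98 in middle-aged libraries. A second peak 915 bp upstream, at chr2:137117397-137117690, was also called in all 6 libraries and was the best one in middle-aged 1. Young 3, the shallowest library, had the lowest rank and the fewest summit reads in both regions. Its fold enrichment was not the lowest in either. At the start it was 6.13, where middle-aged 1 was lowest at 5.38. In the second region it was 4.88, where young 2 was lowest at 4.38. The height over the genome-wide background was lowest in young 1 in both regions.

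The other ligand genes had weak or no start site peaks. Dll1, a Delta-like ligand that activates receptors on neighbouring cells, had peaks near the bottom of the lists. They ranked at 12.4 in young 2, 2.13 in young 3, 26.4 in middle-aged 1 and 8.51 in middle-aged 2, with fold enrichments of 3.99, 3.87, 4.38 and 3.70 from 18, 12, 21 and 17 reads. Young 1 and middle-aged 3 had no peak there. The peaks fell into separate regions, chr17:15375473-15376132 in 3 libraries and chr17:15376370-15376616 in middle-aged 1, and both overlap exons of the noncoding gene A930024N18Rik, so the openness cannot be assigned to Dll1 alone. Jag2, the second Jagged ligand, had its nearest peak 11962 to 12015 bp from the start of its longest coding transcript. Dll4, the ligand best known from sprouting endothelium, had no peak at all in its gene body and upstream window, and the nearest peak to its start was 12032 to 12112 bp away. Dll3 had its nearest peak 7407 to 9713 bp away.

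The open and closed start sites were set against their base composition. A start site was called CpG-rich where the 1000 bp around it had at least 50% G and C and a CpG observed over expected ratio of at least 0.6. Of 10943 genes with such a site, 78.8% had a TSS peak in all 6 libraries and 7.22% in none. Of the other 10910 genes, 17.8% had one in all 6 and 69.8% in none. Notch1, Notch2 and Jag1 had ratios of 0.72, 0.95 and 0.92 at their open sites and were all CpG-rich, as was Dll1 at 0.80. Notch4 at 0.16 and Dll3 at 0.45 were not CpG-rich. Jag2 stood out with a ratio of 0.92 and 75.5% G and C, as CpG-rich as Jag1, and yet had no TSS peak in any library. Notch3 at 0.61 and Dll4 at 0.60 were just above the limit and also had none.

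**Figure D2:**
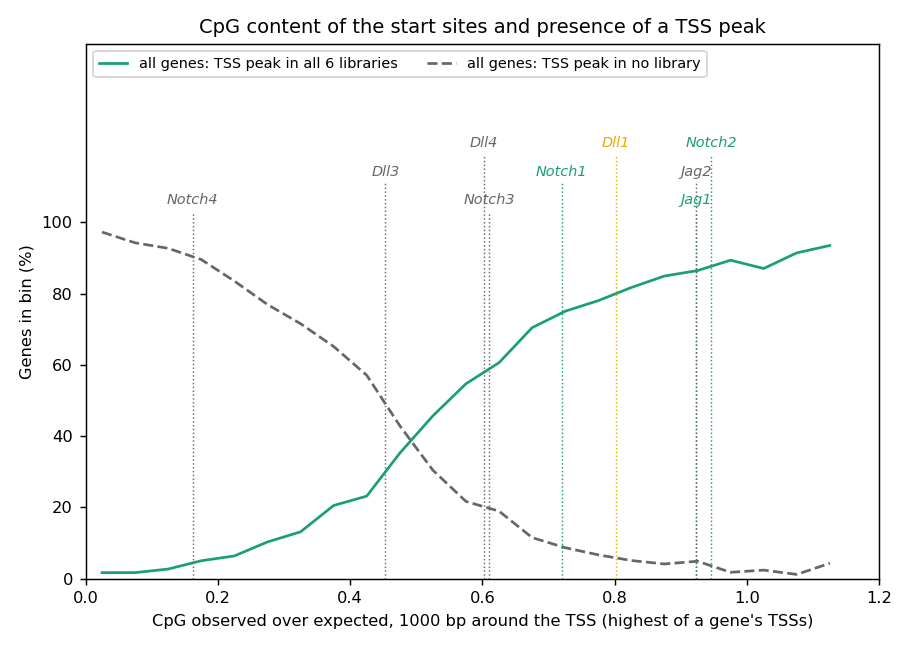
Share of all protein-coding genes whose TSS had a peak in all 6 libraries (solid line) or in none (dashed line) by the CpG observed over expected ratio around the start site, in bins of at least 20 genes. Dotted lines mark the 9 genes, coloured green for a peak in all 6 libraries, yellow for 4 and grey for none. Jag2 and Jag1 fall at the same ratio of 0.92, where Jag1 had its peak in all 6 libraries and Jag2 in none.

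Around the start sites, the number of called peaks per locus (gene body and 20 kb upstream) was highest at Notch2 and Notch1. Notch1 had 6, 8 and 5 peaks in the young and 8, 8 and 9 in middle-aged libraries (p = 0.3, exact permutation test), with young 2 equal to the lower middle-aged libraries. Notch2 had 8, 13 and 7 against 11, 10 and 9 (p = 0.9, exact permutation test), where young 2 was the highest of all. Notch3 had 1, 1 and 0 against 2, 2 and 2, which did not overlap (p = 0.1, exact permutation test, and 1 after adjustment over 16870 loci). With the lists cut to the same length, the difference in mean peak count was 0 at Notch3 and 0.333 at Notch1, each with p = 1 in the exact permutation test. Over these loci, 6.6% did not overlap with more peaks in middle-aged libraries and 0.0948% with fewer. Notch4, Jag1, Jag2, Dll1 and Dll3 had between 1 and 4 peaks per library with overlapping groups. Summed over the 9 genes, there were 23, 31 and 22 peaks in the young and 31, 29 and 28 in middle-aged libraries, a ratio of means of 1.16. The ratio was 1.32 for the whole lists and 1.26 for the peaks of all loci.

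**Figure D3:**
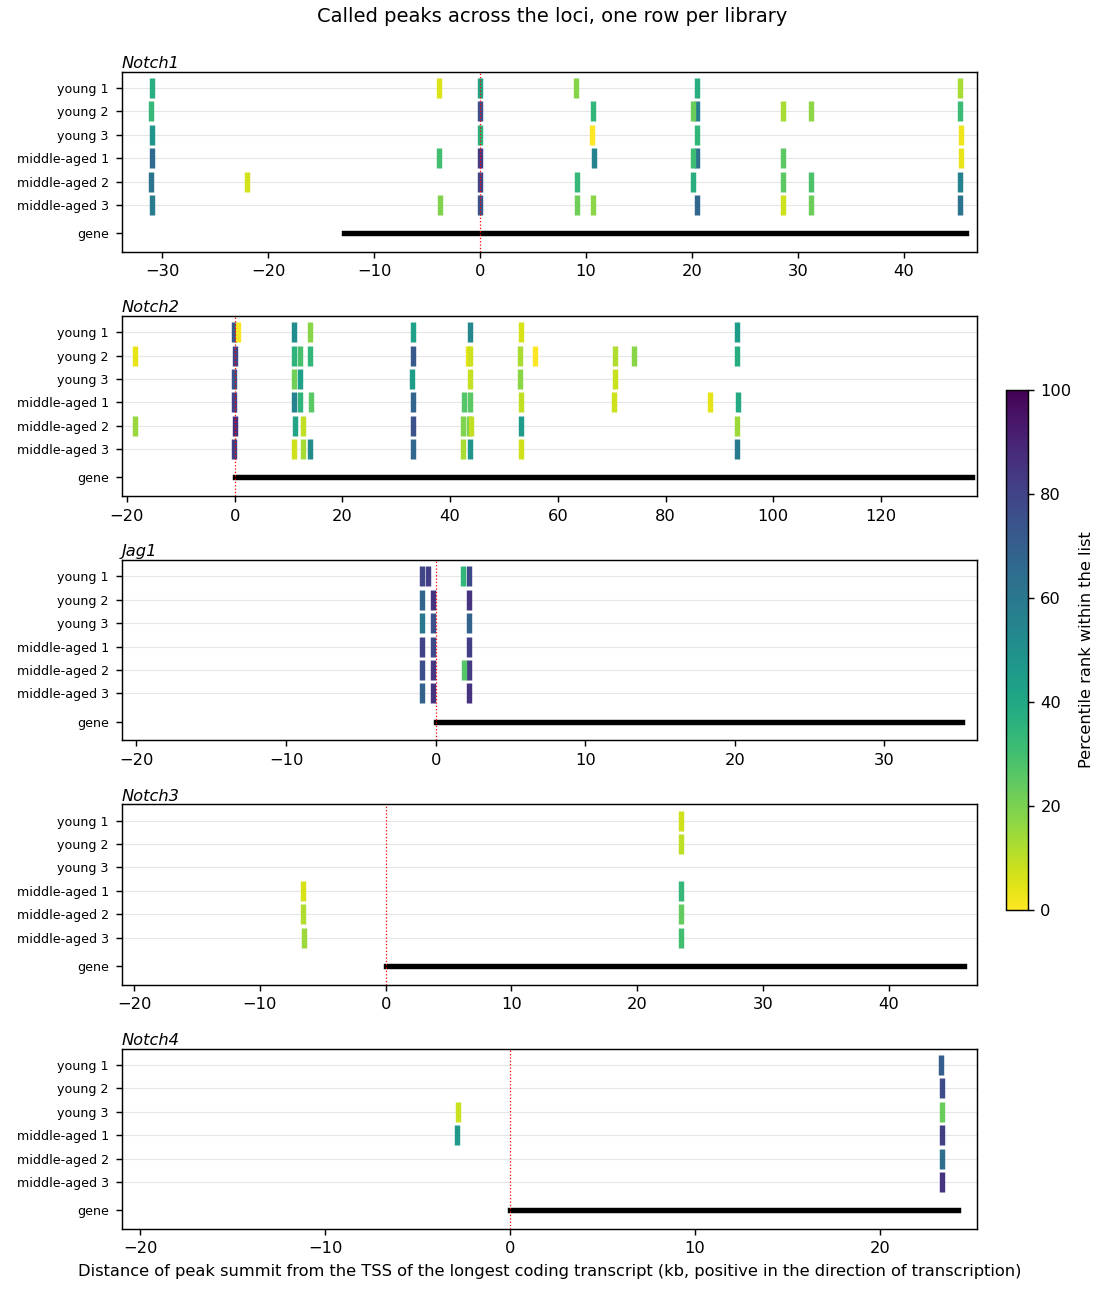
Called peaks along 5 loci, with one row per library, the position as distance in kb from the TSS of the longest coding transcript (dotted line, positive in the direction of transcription) and the colour as percentile rank within the list. Black bars are gene bodies. Notch2 has many low-ranking peaks spread through its first introns, Jag1 has its peaks within 2253 bp of the start, and Notch3 and Notch4 have peaks away from the start.

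The 39 regions were 10 at Notch1, 15 at Notch2, 2 each at Notch3, Notch4 and Dll3, 3 at Jag1, 1 at Jag2, 4 at Dll1 and 0 at Dll4. Of these, 16 were called in all 6 libraries, or 41.0%, beside 35.1% of all merged regions. A single library called 6 of the 39 (15.4%), beside 23% of all regions. More middle-aged than young libraries called 13 of them, fewer called 5, and equal numbers called 21. The 33.3% with more middle-aged and 12.8% with more young libraries compare with 47.1% and 9.02% of all regions.

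**Figure D4:**
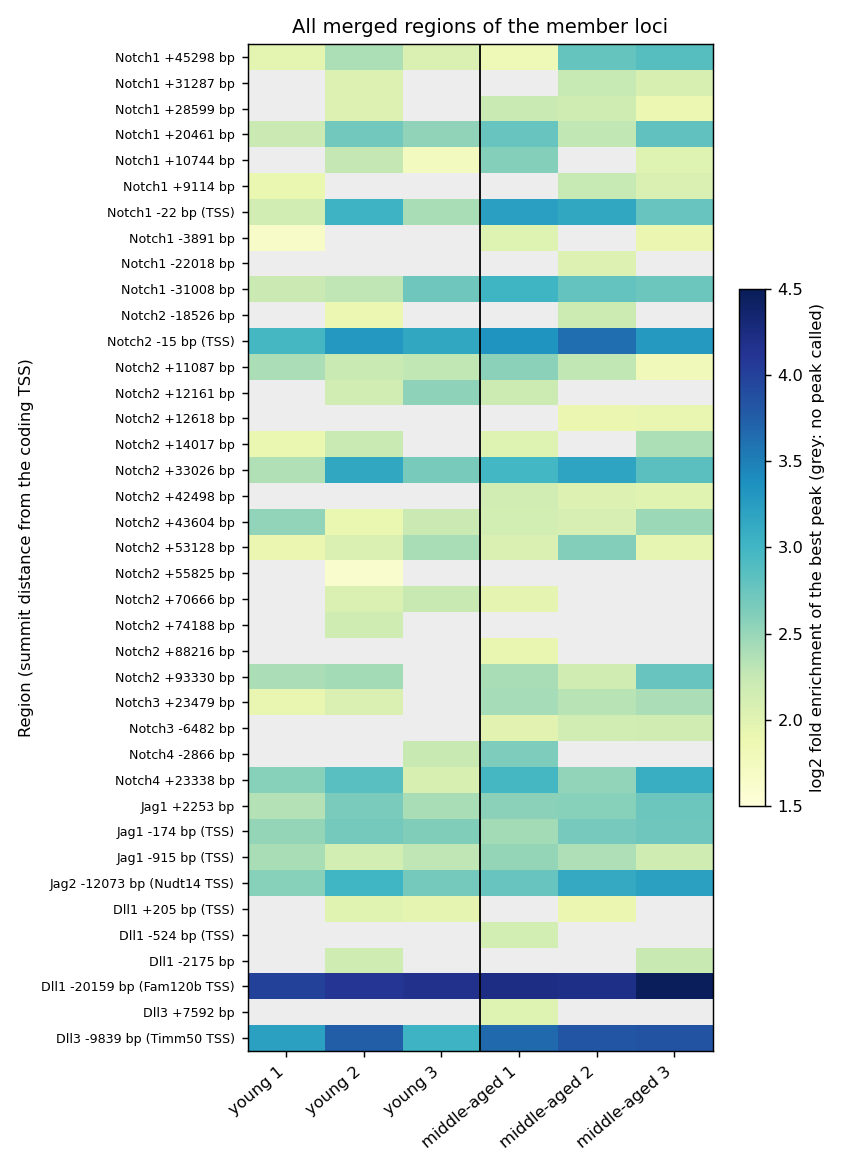
Log2 fold enrichment of the best peak in each of the 39 regions (rows, named by gene and by the distance of the summit from the TSS of the longest coding transcript) and 6 libraries (columns), with grey for no called peak. The 16 rows filled in all 6 libraries include both Jag1 start regions and the Notch1 and Notch2 start sites, and the Fam120b start site is the strongest row.

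There were 2 regions called in all 3 middle-aged libraries and in no young one, where 2.21% of all merged regions were such, and 0 in all 3 young and no middle-aged one, beside 0.036%. One lies in Notch2 intron 2, at chr3:98055862-98056187, 42498 bp downstream of the start. It ranked at 26.8, 19.5 and 13.1 in middle-aged 1, 2 and 3, with fold enrichments of 4.44, 4.13 and 3.98. The other lies 6482 bp upstream of Notch3, at chr17:32173251-32173588, and ranked at 6.01, 11.8 and 15.0 with fold enrichments of 3.95, 4.41 and 4.48 from 13, 14 and 16 reads. Both sets of peaks came from the lower part of their lists. With the lists cut to the same length, 0 such regions were left.

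Several regions away from the start sites were open in every library. At Notch1 the region with the highest mean rank over all 6 libraries, 50.5, lay far upstream, at chr2:26534622-26534999. It was 18167 bp before the annotated gene and 31008 bp before the full-length transcript. A region in intron 4 had a mean rank of 49.4. Intron 4 was higher in the young, at 43.0 beside 39.3, and lower in middle-aged libraries, at 55.8 beside 61.8. The upstream region was thus picked through its middle-aged ranks, and the following values share that choice. The upstream region ranked at 37.1, 32.9 and 47.9 in the young and 65.4, 61.8 and 58.2 in middle-aged libraries. Every middle-aged library ranked higher than every young one. The mean ranks were 39.3 ± 7.74 (SD, n = 3) and 61.8 ± 3.57 (SD, n = 3), with p = 0.1 in the exact permutation test and 0.404 after adjustment over 22403 regions. Its fold enrichment was 4.62, 4.89 and 6.60 in the young and 8.12, 6.87 and 6.68 in middle-aged libraries. The pileup over the genome-wide background was 7.20, 7.42 and 12.1 in the young and 11.8, 12.9 and 10.7 in middle-aged libraries. These heights overlapped, with young 3 above middle-aged 1 and middle-aged 3. Of the 16 regions, 2 had ranks that did not overlap, this one and the Notch2 start site, both with the middle-aged higher. Over all 22403 regions called in 6 libraries the share was 24.3%, and 0.495% did not overlap with the middle-aged lower. The median difference in rank was 9.30 points over the 16 regions and 6.74 over all regions.

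At Notch2 the strongest region outside the start lay in intron 1, at chr3:98046313-98046780 and 33026 bp downstream of the start. Its ranks were 42.3, 72.4 and 44.9 in the young and 67.7, 75.0 and 66.5 in middle-aged libraries, with fold enrichments of 5.15, 8.85 and 6.37 and of 7.88, 9.09 and 7.20. Young 2 lay among the middle-aged libraries, as it did at the Notch1 start site. At Jag1 the region in intron 2, at chr2:137114163-137115077 and 2253 bp downstream of the start, was nearly as strong as the start site itself. It ranked at 78.0, 85.1 and 68.5 in the young and 81.8, 82.4 and 85.4 in middle-aged libraries, and the groups overlapped.

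At Notch4 the region called in all 6 libraries lay at the other end of the gene, at chr17:34587169-34587812, over exon 30 and 897 bp from the gene's end. It ranked at 70.6, 77.2 and 22.8 in the young and 81.6, 64.0 and 84.5 in middle-aged libraries, from 54, 59 and 22 and from 68, 41 and 79 reads. Young 3 was by far the lowest, and middle-aged 2 lay below young 1 and young 2. The 200 bases at its summit had 75.5% G and C and a CpG ratio of 1.01. At Notch3, a region over exon 24, at chr17:32143206-32143518, was called in every library but young 3. Young 1 and 2 had it at ranks of 7.18 and 9.84, and the middle-aged libraries at 33.5, 23.9 and 30.3. This region was named after its values were seen. Of regions called in all 6 libraries, 24.3% had ranks that did not overlap with the middle-aged higher. In a limma fit without young 3, its log2 fold enrichment differed by 0.18 (SE 0.19, limma adjusted p = 0.878).

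Called throughout as well were 2 more regions of Notch1, over its last exon and in intron 4, and 3 more of Notch2, in introns 1 and 2, all with overlapping ranks. The other 3 regions called throughout were start sites of neighbours. The Jag2 window held the start site of Nudt14, 12073 bp upstream of Jag2, at ranks of 42.6 to 80.1. The Dll1 window held that of Fam120b, whose mean rank was 96.8 in the young and 97.1 in middle-aged libraries. The Dll3 window held that of Timm50, with mean ranks of 78.4 and 88.5. Apart from these neighbours, the loci of Jag2, Dll1 and Dll3 had no region that was called in all 6 libraries.

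The fold enrichment of the 16 regions was compared between ages in a limma fit over all 22403 shared regions, with each library centred on its median. No region of the 9 loci passed an adjusted p of 0.05. The fit called 1 region of 22403 higher in middle-aged libraries (0.00446%) and 0 lower (0%). That 1 region, chr1:24612608-24612894, is in no member locus, and 91.1% of its 31-base words also occur in the mitochondrial genome. At an unadjusted p under 0.05 there were 1812 regions, 759 of them higher in middle-aged libraries.

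Among the 16 regions, 8 were higher and 8 lower in middle-aged libraries, where 44.4% of all regions were higher. Their median log2 difference was 0.0027 beside −0.02 over all regions. At the Notch1 start site the log2 fold enrichment differed by 0.29 (SE 0.19, limma adjusted p = 0.696), and in the upstream Notch1 region by 0.21 (SE 0.19, limma adjusted p = 0.804). Leaving out 1 library moved these to between 0.15 (without young 1) and 0.45 (without young 2), and to between 0.06 (without young 2) and 0.39 (without young 3). At the Notch2 start site the difference was 0.05 (SE 0.14, limma adjusted p = 0.952). At Jag1 it was −0.23 (SE 0.17, limma adjusted p = 0.750) at the start and −0.16 and −0.08 in the regions 915 bp upstream and in intron 2. The lowest value was −0.32 (SE 0.20, limma adjusted p = 0.677) in another region of Notch2 intron 1, 11087 bp downstream of the start. No difference exceeded the spread between libraries after adjustment, which does not show that the ages were alike.

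**Figure D5:**
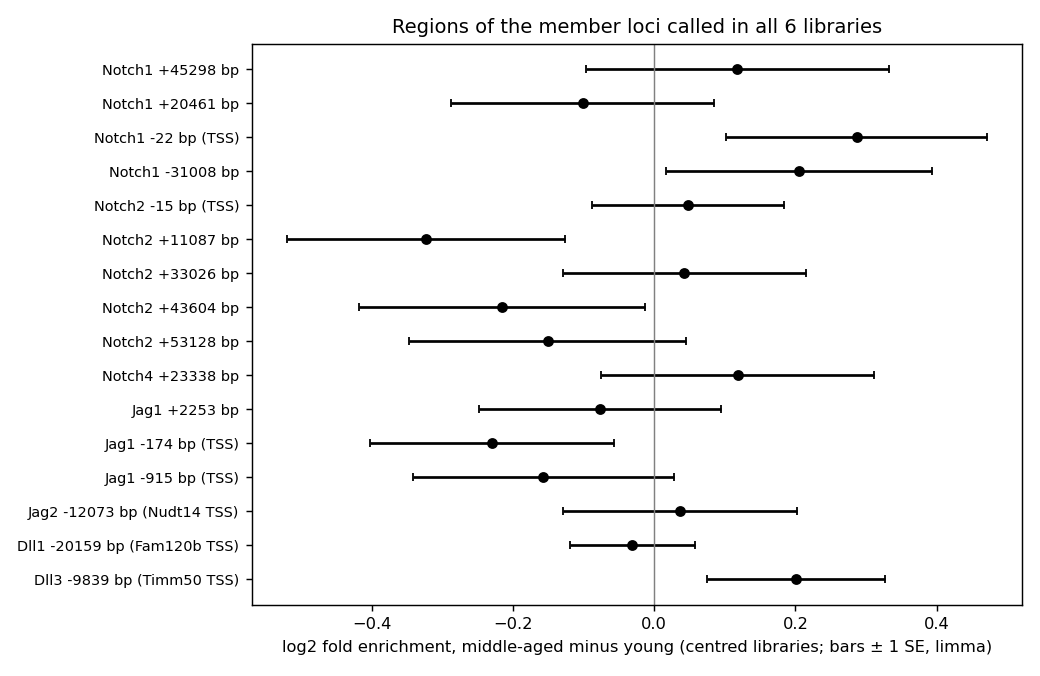
Log2 fold enrichment in middle-aged minus young libraries (x axis, points, with bars of 1 SE from limma) for the 16 regions called in all 6 libraries, named by the distance of the summit from the TSS of the longest coding transcript, after centring each library on its median. The Notch1 start site has the highest value, 0.29, and a Notch2 intron region the lowest, −0.32.

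The centring bears on these values, because the median fold enrichment of the shared regions was 7.16, 8.61 and 7.35 in the young and 9.01, 9.11 and 8.98 in middle-aged libraries. Without centring, all regions had a median log2 difference of 0.21 and the 16 regions one of 0.24. Of the 16, 15 were positive, beside 88.7% of all regions. With the summit pileup over the genome-wide background and no centring, chosen after seeing the data, the medians were 0.39 and 0.42, and 2394 regions were higher and 0 lower. Past the threshold were thus 2394 of 22403 regions and 1 of the 16 member regions. That 1 was the Notch1 start site, at 0.83 with a limma adjusted p of 0.0301. This value and the general shift of 0.39 are on the same scale.

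Under the summits, 4 of the 39 regions (10.3%) held the RBPJ letters GTGGGAA within 200 bp, beside 4.67% of all merged regions. They were the Notch2 intron 1 region and the region upstream of Notch3 printed above, a Notch1 region called in middle-aged 2 alone and the Dll1 start region. The AP-1 letters TGANTCA were found in 10.3% beside 15.9%, the RUNX letters TGTGGT in 17.9% beside 21.2%, and the TEAD letters GGAATG in 12.8% beside 12.7%. The EBF letters CCCNNGGG, which read the same on both strands, were found in 9 regions (23.1%) beside 8.71%. Among regions called in all 6 libraries, 4 of the 16 held the EBF letters, beside 10.2% of all such regions. For the RBPJ letters it was 1 of the 16, beside 4.09%. The fixed EBF letters are all G and C, and the shares were not matched for base composition. Both the Notch2 and Jag1 start sites printed above hold an EBF match. None of these 5 motifs lies in the printed Notch1 start site, which says only that the letters are absent from this window.

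The rest of the pathway was mostly open at its start sites in both ages. Of 36 other genes of Notch signalling, 27 had a TSS peak in all 6 libraries and 2, Heyl and Dlk1, in none. Over all protein-coding genes the shares were 48.4% and 38.5%, and over genes with a CpG-rich start site 78.8% and 7.22%. The 36 genes were not matched for base composition. A TSS peak was called at 30, 33 and 28 of the 36 in the young and at 31, 30 and 32 in middle-aged libraries. None differed by 2 or more libraries between the ages. Of the 27, 9 had higher ranks in every middle-aged than in every young library, or 33.3% of them, and 0 lower, beside the 30.6% and 0.274% of all genes given above. They include the gamma-secretase subunits Psen2, Ncstn and Psenen, the coactivator Maml2, the fringe glycosyltransferases Lfng and Rfng, the Notch inhibitor Numb, the ubiquitin ligase Mib2 and the corepressor Spen. Their median difference in rank was 5.26 points over the 27 genes, close to the 4.97 of all genes.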

How the data were processed

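Per the labels, SSPCs from 3 young and 3 middle-aged libraries were used. The authors made reads with bcl2fastq, mapped them to mm10 with Bowtie2, dropped duplicates with Sambamba and called peaks in each library with MACS. Whether reads were shifted for the transposase is not given in the sources used here. Each deposited list gives per peak a score (a whole-number form of −log10 q), a fold enrichment (a linear ratio), and the −log10 of p and q. The score was not used. Their differential comparison with DiffBind needs reads and was not repeated.

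Summit pileups were solved from the fold enrichment and −log10 p, and were whole reads for 100% of peaks (tolerance 0.001 in −log10 p). The lowest background of a list served as relative depth. Read totals are unknown. Start sites came from the GENCODE annotation of mm10 (54361 protein-coding TSSs). Peaks overlapping by 1 bp were merged into regions. Two-sided exact permutation tests ran over 20 assignments of libraries, with a smallest p of 0.1 and Benjamini-Hochberg adjustment over all genes or regions. limma 3.58.1 (trend) was fitted to log2 fold enrichment. Both were tested on simulated data. The changes planted for limma were larger than any difference seen in the member regions. That simulation therefore does not show whether differences of the size seen here would be found. Motifs were searched in 200 bp and CpG content in 1000 bp with pysam 0.24.0.

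All 9 genes were named, with regions at their start sites and the other shared region of highest mean rank in each locus. Regions called in a single age group and regions past the threshold were named too. Further regions were named after their values were seen. Lists of Notch pathway, SSPC, hematopoietic, endothelial and mural genes were described by counts. The members and lists were chosen with earlier results of these data known. Alternatives were other TSS windows (500 and 2000 bp) and upstream distances (10 and 50 kb), a −log10 q of at least 5, lists of 27628 peaks each, pileups scaled to the lowest background, ranking by fold, 50% cover, other scalings, array weights, a replicate block and leaving out each library.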

Additional observations from a re-analysis of the deposited data

How the results depend on the processing

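Depth and list length were lowest in young 3, and their part in the results was not tested. With lists of equal length, the Jag1 rank difference was −5.43, the peak count differences −1 at Notch2, 0 at Notch3 and 0.333 at Notch1, the ratio of summed locus peaks 0.9 (1 for the whole lists by construction), and the regions of the loci called in middle-aged libraries alone 0. Without young 3, the Jag1 rank difference was −0.789 and the Notch2 peak count difference −0.5 (2.5 without young 2). With 50 kb upstream, the Jag2 peak count difference was 0.333. The cause of these changes was not tested. Leaving out 1 library at a time gave rank differences of 19.9 to 40.1 for Notch1, 6.13 to 9.92 for Notch2 and −0.789 to 4.12 for Jag1, a ratio of summed locus peaks of 1.09 to 1.30, 2 to 3 regions of the loci in middle-aged libraries alone and 0 in young alone. Over all shared regions, 0 to 2 were then past the limma threshold in each direction (0 higher without middle-aged 1 or 3, 2 higher and 2 lower without young 2, 1 lower without young 3), and 0 of the loci.

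Without centring, limma called 2 regions higher, and the log2 differences of Jag1 turned to 0.16 in intron 2, 0.0046 at the start and 0.077 at 915 bp upstream, and that at the Fam120b start to 0.20. The uncentred pileup over the genome-wide background was chosen after seeing the data. With it, 2394 of 22403 regions were higher, among them 1 of the 16 in the loci (Notch1 start site, 0.83). The Jag1 values were then 0.35, 0.22 and 0.29, and that of Fam120b 0.38. The Fam120b value was 0.017 with quantile normalization, 0.020 with centred pileups and −0.122 to 0.030 without 1 library. Without 1 library, the Notch2 start site ran from −0.056 to 0.107, Notch2 intron 1 from −0.087 to 0.165, the Nudt14 start from −0.063 to 0.167 and Notch4 exon 30 from −0.068 (without young 3) to 0.289. The Notch1 start site ran from 0.148 to 0.450, the upstream Notch1 region from 0.060 to 0.388 and the region 915 bp upstream of Jag1 from −0.317 to −0.037. Of 391 alternative values, 24 turned direction, 11 moved, 1 newly passed the threshold, 25 were differences in peak count that moved to or from 0 without a call, and 330 kept their direction and side of the threshold, or their count.

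Libraries with the same replicate number did not deviate together (correlations of 0.0116, 0.0115 and −0.0185 over 22403 regions), and they were treated as unpaired. These correlations cannot show that the numbers carry no pairing. With the replicate block, limma called 1 region, 0 of them in the loci, the rank differences of Notch1, Notch2 and Jag1 stayed 27.7, 7.95 and 1.90 with a smallest possible p of 0.25 in the exact sign permutation, and the block changed no call.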
